A study of Homo sapiens with 6 samples.

Results

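RAS-ERK signaling and its immediate-early output were described in WM266.4 human melanoma cells through 41 genes, out of 24526 genes in the deposited table. The 41 members were taken by gene symbol: 8 genes of the kinase cascade itself, 11 feedback inhibitors, 3 PEA3 family ETS factors, 17 immediate-early genes and 2 further output genes, PHLDA1 and UPP1. The rule used symbols only, but earlier results of these data were known when the members were chosen, so their shares below are descriptions. All 41 passed the filter on low counts. The study compared 3 cultures transfected with a negative control siRNA (neg.si, named control.si in the sample titles) with 3 cultures transfected with siRNA against RIPK4 (RIPK4.si). All were taken 48 h after transfection, and poly(A) RNA was sequenced as paired reads. WM266.4 is an established melanoma line with an activating BRAF mutation, grown in serum. All libraries came from this 1 line, and the siRNA was the only difference between the groups that the labels give. An siRNA is a small RNA duplex through which cells cleave matching transcripts. RIPK4 is a serine/threonine kinase of the receptor-interacting protein family.

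In the RAS-ERK cascade, active RAS proteins recruit RAF kinases, RAF phosphorylates the MEK kinases, and MEK phosphorylates ERK, which then acts on cytoplasmic and nuclear substrates. Active ERK induces immediate-early genes, which need no new protein synthesis for their transcription, and it induces its own inhibitors, the dual-specificity phosphatases (DUSP), Sprouty (SPRY) and SPRED proteins. In melanoma with mutant BRAF the cascade runs without upstream input, and transcripts such as DUSP6, SPRY4 and ETV5 are widely used as a readout of it.

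To show the kind of regulatory sequence these genes carry, the promoter windows of RefSeq on build GRCh38.p14, from 250 bases before to 50 bases after the start, were searched on both strands for 5 motifs. These were the CArG box bound by serum response factor, the ETS core CGGAAG, the cAMP response element TGACGTCA, the AP-1 site TGACTCA or TGAGTCA, and the EGR site GCGTGGGCG, none of which contains another. Windows were held for 32 of the 41 members. DUSP4, DUSP5, EGR3, ETV4, ETV5, FOSL1, IER3, MYC and NR4A2 were not searched. The windows shown are those of EGR1, IER2, DUSP6, SPRED3 and DUSP1, chosen because the results below turn on these genes, read 5′ to 3′ on the strand of the gene, with the motif in capitals. EGR1 held a pair of CArG boxes, at chr5:138465364-138465393 and chr5:138465386-138465415 on the plus strand, the boxes starting 105 and 83 bases before the start:
EGR1, distal box: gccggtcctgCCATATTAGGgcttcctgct
EGR1, proximal box: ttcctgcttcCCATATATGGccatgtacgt
IER2 held a pair of ETS cores, written here as the reverse complement CTTCCG, at chr19:13150331-13150356 and chr19:13150374-13150399 on the plus strand:
IER2, distal core: cgtgcggacaCTTCCGccctctcctc
IER2, proximal core: gcagaggcagCTTCCGgtgcacatgc
DUSP6 held 1 ETS core at chr12:89352548-89352573 on the minus strand, SPRED3 an AP-1 site at chr19:38389721-38389747 on the plus strand, and DUSP1 a cAMP response element at chr5:172771303-172771330 on the minus strand:
DUSP6: gcaacagcccCTTCCGcagcacgctc
SPRED3: cgttgctgggTGACTCAgtgagctttg
DUSP1: gcagggcgggTGACGTCAccgccccgtc
Each of these motifs lies upstream of the RefSeq start, between 27 and 125 bases before it, and the SPRED3 site lies inside the gene as the annotation of the deposited table draws it.

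The motifs were about as frequent in members as elsewhere, or rested on very few windows. The ETS core was in 9 of the 32 member windows (28.1%) and in 31.8% of the windows of 11037 tested genes. The CArG box was in 1 (EGR1) against 1.16%, the cAMP response element in 3 (NF1, DUSP1 and JUND) against 3.15%, the AP-1 site in 2 (SPRED3 and FOSL2) against 3.41%, and the EGR site in 0 against 1.29%. These matches are descriptions of letters in a window, and a window without a match says nothing of a factor.

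The libraries held between 28464057 and 31688095 counts on genes, so depth was similar. The RIPK4 transcript, which checks the labels, was 85.8, 76.5 and 54.7 CPM (counts scaled to a normalized library size) in the neg.si libraries, ordered here and below by replicate number 1, 2 and 3, and 19.9, 16.7 and 21.5 CPM in the RIPK4.si libraries. That is 26.8% of the neg.si mean (log2 fold change -1.90 ± 0.203 SE, adjusted p = 0.0102, quasi-likelihood test of edgeR, Benjamini-Hochberg adjusted, as for every adjusted p-value below unless another tool is named). The RIPK4 call was lost without neg.si replicate 2 or any RIPK4.si library, with adjusted p-values from 0.0622 to 0.106. The melanocyte lineage markers were all present, with SOX10 between 289.9 and 427.9 CPM, and their summed level was 3610 to 4043 CPM in neg.si and 2676 to 2791 CPM in RIPK4.si, with group means of 1348 and 910.7 CPM for TYR, 699.6 and 422.5 CPM for DCT and 280.0 and 113.6 CPM for PMEL. The log2 fold change was negative for 5 of the 10 (TYR, DCT, PMEL, S100B and SOX10) and positive for 5 (MITF, MLANA, TYRP1, PAX3 and S100A1, from 0.04 to 0.36). Of these 10, edgeR called PMEL lower, DESeq2 called PMEL, DCT and TYR lower, and edgeR with the GC trend removed called PMEL and DCT lower. Among 13 markers of leukocytes, endothelium, epithelium and fibroblasts, COL1A2 was at 510.1 to 1039 CPM, the other 12 were at no more than 1.43 CPM in any library, and KRT5 and KRT14 were at 0 in 4 libraries each. The summed level of these 13 was 635.4 to 818.9 CPM in neg.si and 513.8 to 1043 CPM in RIPK4.si. The part of the lower summed level of lineage markers in the values of the members was not tested.

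Most of the 41 members showed small differences between the groups, and 1 of them, EGR3, was called lower at an adjusted p under 0.05. Log2 fold changes, RIPK4.si over neg.si, ran from -1.36 (EGR3) to 0.90 (KSR1), with a median of -0.08 against -0.02 over all genes tested. Of 16297 genes tested, 125 were called (0.767%), 0.374% higher and 0.393% lower in RIPK4.si. At an unadjusted p under 0.05 there were 10 members (24.4%), 3 higher and 7 lower, where the share over all genes was 10.8%, 4.85% higher and 6.0% lower. The groups did not overlap for 13 members (31.7%), 9 lower and 4 higher, against 17.6% of all genes, 9.40% lower and 8.23% higher. The log2 fold change was negative for 24 members (58.5%) and for 53.4% of all genes. It was under 0.1 in size for 11 members, and 5 members (EGR3, SPRED3, IER2, KSR1 and FOSB) differed by a fold of at least 1.5. DESeq2 called 3 members, KSR1 higher and EGR3 and IER2 lower, where it called 2.78% of 15490 genes, 1.39% higher and 1.38% lower. These are RNA levels of whole cultures, in which fewer cells with a transcript and less transcript per cell cannot be told apart. The plot of log2 fold changes shows the members by role.

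**Figure D1:**
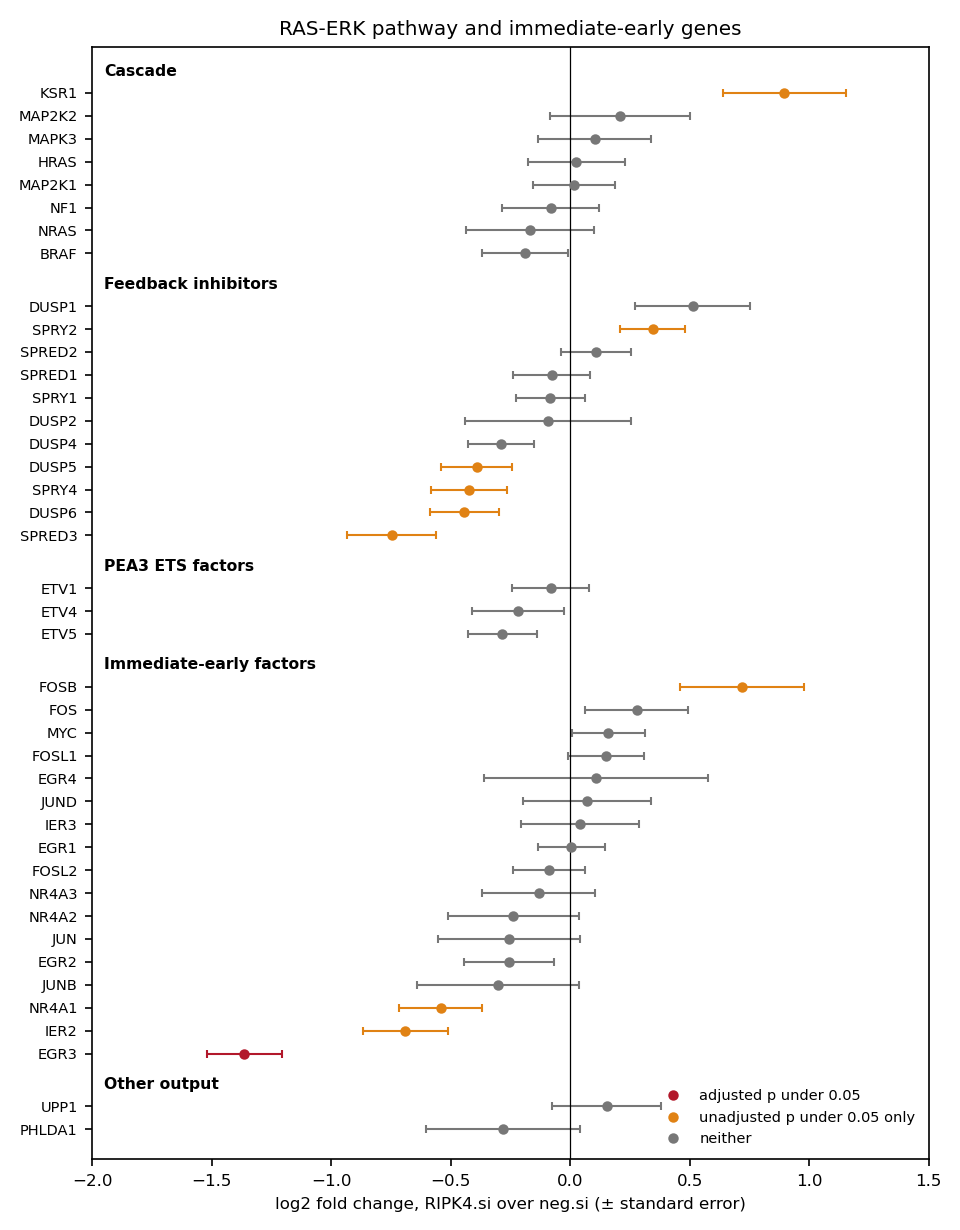
Log2 fold change of RIPK4.si over neg.si (x axis) for each of the 41 members, grouped by role, as points with bars of 1 standard error from edgeR (3 libraries a group). EGR3 at -1.36 is the 1 gene past an adjusted p of 0.05, and 9 others have an unadjusted p under 0.05 only.

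The transcripts of the core cascade did not separate the groups, apart from the scaffold KSR1. Of the 8 cascade members, 0 were called by edgeR, 1 had an unadjusted p under 0.05, and 1 was called by DESeq2, KSR1 in each case. That is 12.5% at an unadjusted p under 0.05, against 10.8% of all genes, and KSR1 was also the 1 of 8 (12.5%) whose groups did not overlap, against 17.6%. The median log2 fold change of the 8 was 0.02.

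NRAS and HRAS encode RAS GTPases, the switch at the top of the cascade. NRAS was 103.2, 132.3 and 214.0 CPM in neg.si replicates 1, 2 and 3 and 138.4, 104.4 and 157.4 CPM in RIPK4.si. HRAS was 22.1, 20.3 and 15.4 CPM in neg.si and 17.8, 23.7 and 17.3 CPM in RIPK4.si. For both genes the groups overlapped, and the neg.si libraries alone spanned about the range of all 6. Log2 fold changes were -0.17 ± 0.268 (SE) for NRAS and 0.03 ± 0.201 for HRAS. NF1 encodes neurofibromin, which speeds the return of RAS to its inactive form. NF1 was 127.9, 185.0 and 214.5 CPM in neg.si and 166.8, 146.4 and 185.0 CPM in RIPK4.si (log2 fold change -0.08 ± 0.203). As for NRAS, but not HRAS, every RIPK4.si value lay inside the range of neg.si.

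BRAF, the mutated RAF kinase of this line, was 40.4, 51.5 and 60.4 CPM in neg.si and 45.8, 40.2 and 47.5 CPM in RIPK4.si. MAP2K1 encodes MEK1 and was 67.0, 58.3 and 49.7 CPM in neg.si and 53.8, 68.6 and 54.7 CPM in RIPK4.si. MAP2K2 encodes MEK2 and was 206.4, 142.7 and 85.3 CPM in neg.si and 146.6, 207.1 and 148.4 CPM in RIPK4.si. None of the 3 kinases separated the groups, and MAP2K2 varied more within neg.si than between groups. MAPK3, which encodes ERK1, was 63.1, 52.3 and 34.3 CPM in neg.si and 47.2, 65.6 and 47.8 CPM in RIPK4.si. Log2 fold changes were -0.19 ± 0.179 (SE) for BRAF, 0.02 ± 0.172 for MAP2K1, 0.21 ± 0.292 for MAP2K2 and 0.10 ± 0.237 for MAPK3, with adjusted p-values between 0.828 and 0.990.

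KSR1 (chr17:27456470-27626438, plus strand) encodes a scaffold that brings RAF, MEK and ERK together. It was 7.88, 10.7 and 5.82 CPM in neg.si and 12.5, 19.0 and 14.0 CPM in RIPK4.si. Every RIPK4.si library was above every neg.si library, and in both groups replicate 2 was the highest. The fold was 1.86 (log2 fold change 0.90 ± 0.257), the highest of the 41, with an adjusted p of 0.190 by edgeR and 0.0423 by DESeq2. The exons of KSR1 overlap annotated genes on both strands, and the counts were made without regard to strand, so reads from the antisense gene are not told apart from those of KSR1.

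The 11 feedback inhibitors held members that were lower and members that were higher in every RIPK4.si library. No feedback inhibitor was called by edgeR or by DESeq2. At an unadjusted p under 0.05 there were 5 (SPRED3, DUSP6, SPRY4 and DUSP5 lower, SPRY2 higher), where the share over all genes was 10.8%. The groups did not overlap for 7, 5 lower (these 4 and DUSP4) and 2 higher (SPRY2 and DUSP1), where the share over all genes was 17.6%. The median log2 fold change of the 11 was -0.09. The summed level of the 11 was 2332, 2381 and 2462 CPM in neg.si and 2006, 1996 and 2117 CPM in RIPK4.si. These replicates lay close together: the median within-group SD of log2 CPM was 0.133 for the feedback inhibitors, 0.334 for the cascade members and 0.284 over all genes.

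DUSP6 (chr12:89347235-89352501, minus strand) encodes a cytoplasmic phosphatase that acts on ERK. It was 323.7, 309.1 and 314.6 CPM in neg.si and 206.8, 257.8 and 232.5 CPM in RIPK4.si. The neg.si libraries were nearly equal and all above the RIPK4.si libraries, and the log2 fold change was -0.44 ± 0.146 (SE), adjusted p = 0.268. An antisense gene overlaps an exon of DUSP6. DUSP5 and DUSP4 encode nuclear phosphatases that bind ERK. DUSP5 was 113.6, 108.5 and 94.7 CPM in neg.si and 76.9, 89.2 and 75.6 CPM in RIPK4.si (log2 fold change -0.39 ± 0.148, adjusted p = 0.352). DUSP4 was 738.7, 706.2 and 701.2 CPM in neg.si and 575.1, 562.5 and 618.8 CPM in RIPK4.si (log2 fold change -0.29 ± 0.140, adjusted p = 0.513). For each of the 3 phosphatases the lowest neg.si library was above the highest RIPK4.si library.

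DUSP1 and DUSP2 encode nuclear phosphatases that also act on p38 and JNK. DUSP1, whose promoter holds the cAMP response element shown above, was 3.71, 3.73 and 2.55 CPM in neg.si and 3.89, 5.57 and 4.79 CPM in RIPK4.si (log2 fold change 0.51 ± 0.240, adjusted p = 0.496). Its groups did not overlap, but neg.si replicate 2 and RIPK4.si replicate 1 lay close together. DUSP2 was at 1.91 ± 0.866 CPM (SD, n = 3) in neg.si against 1.79 ± 0.342 CPM in RIPK4.si, with overlapping groups.

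SPRY4 (chr5:142310427-142326455, minus strand) and SPRY2 are Sprouty proteins, which dampen signaling from receptor tyrosine kinases to ERK, and their transcripts differed in opposite directions. SPRY4 was 622.2, 667.5 and 749.5 CPM in neg.si and 538.2, 441.4 and 540.8 CPM in RIPK4.si. SPRY2 was 228.7, 253.0 and 238.4 CPM in neg.si and 295.8, 316.4 and 302.8 CPM in RIPK4.si. Neither pair of groups overlapped, SPRY4 being lower and SPRY2 higher in every RIPK4.si library. Log2 fold changes were -0.42 ± 0.158 (adjusted p = 0.346) for SPRY4 and 0.35 ± 0.136 (adjusted p = 0.378) for SPRY2. The ratio of SPRY4 to SPRY2 within a library, chosen after the values were seen and so not tested, was 2.72, 2.64 and 3.14 in neg.si and 1.82, 1.40 and 1.79 in RIPK4.si. SPRY1 was at 81.9 ± 5.96 CPM (SD, n = 3) in neg.si against 77.3 ± 6.88 CPM in RIPK4.si, with overlapping groups.

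SPRED proteins bind neurofibromin and bring it to RAS at the membrane. SPRED3 (chr19:38388421-38399587, plus strand) was 8.27, 8.26 and 6.89 CPM in neg.si and 4.46, 4.396 and 5.08 CPM in RIPK4.si. The groups were well apart, and the log2 fold change of -0.75 ± 0.186 was the next lowest among the 41 after EGR3. Its adjusted p was 0.129 by edgeR and 0.0505 by DESeq2. The other SPRED transcripts were more abundant and overlapped between groups: SPRED1 was at 136.4 ± 23.1 CPM (SD, n = 3) in neg.si against 129.2 ± 6.13 CPM in RIPK4.si, and SPRED2 at 103.9 ± 10.5 and 111.8 ± 7.82 CPM.

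**Figure D2:**
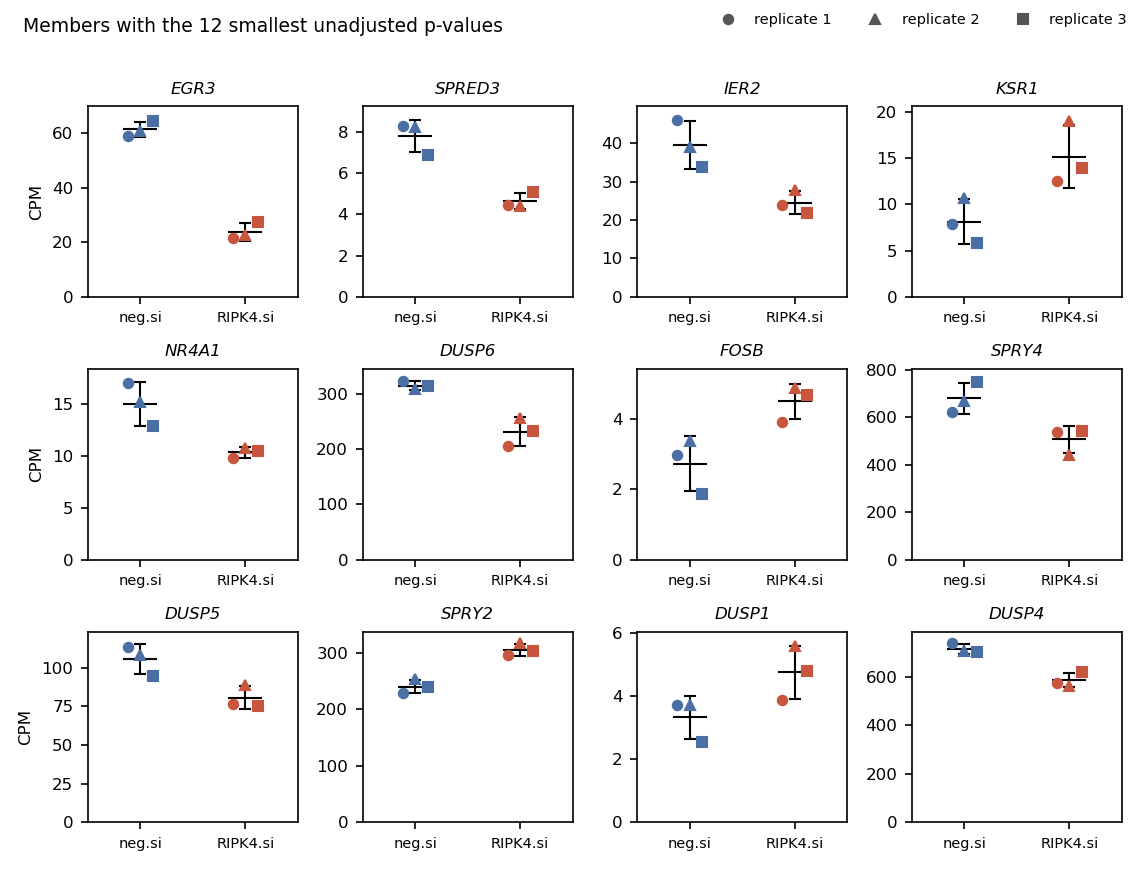
CPM (y axis, linear, from 0) in each library for the 12 members with the smallest unadjusted p-values, 3 libraries of neg.si (blue) and 3 of RIPK4.si (red) per panel. Marker shape gives the replicate number, and the lines give the mean and SD. EGR3 in neg.si lies at 58.8 to 64.3 CPM against 21.5 to 27.5 CPM in RIPK4.si. The groups overlap in none of the 12 panels, which largely follows from choosing genes by p-value in these same libraries. Groups did not overlap for 31.7% of the 41 members and 17.6% of all genes.

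The PEA3 family of ETS transcription factors, which ERK signaling raises and activates, had a negative log2 fold change in 3 of 3 members, and 0 were called by edgeR or DESeq2 or had an unadjusted p under 0.05. Over all genes 53.4% were negative and 10.8% had such a p. ETV5 was 290.2, 300.8 and 317.2 CPM in neg.si and 263.9, 221.6 and 260.0 CPM in RIPK4.si. Its groups did not overlap, as for 17.6% of all genes, and the log2 fold change was -0.28 ± 0.144 (SE), adjusted p = 0.541. ETV4 was at 220.6 ± 53.0 CPM (SD, n = 3) in neg.si against 189.5 ± 14.9 CPM in RIPK4.si, and ETV1 at 169.5 ± 28.5 and 160.2 ± 8.02 CPM, both with overlapping groups. The summed level of the 3 was 709.5, 684.2 and 684.9 CPM in neg.si and 606.5, 582.1 and 605.9 CPM in RIPK4.si. The exons of ETV5 overlap DGKG on the same strand and those of ETV4 overlap DHX8 on the other, so reads there may be shared.

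The 17 immediate-early genes held the 1 called member, EGR3, beside a sister gene, EGR1, whose groups differed by less than the replicate spread. Of the 17, 4 had an unadjusted p under 0.05 (EGR3, IER2 and NR4A1 lower, FOSB higher), and the same 4 had groups that did not overlap (23.5% each, against 10.8% and 17.6% of all genes). The median log2 fold change of the 17 was -0.09. The summed level was 695.9, 634.8 and 539.2 CPM in neg.si and 577.6, 582.3 and 590.8 CPM in RIPK4.si, so the sums overlapped.

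EGR3 (chr8:22687659-22693480, minus strand) encodes a zinc finger factor of the early growth response family. It was 58.8, 60.7 and 64.3 CPM in neg.si and 21.5, 22.5 and 27.5 CPM in RIPK4.si. The groups were far apart relative to their spread, and the RIPK4.si libraries held 0.388 of the neg.si level (log2 fold change -1.36 ± 0.158, adjusted p = 0.0111 by edgeR and 2.1e-10 by DESeq2). EGR3 counts per library ran from 630 to 2043, so counting error was small beside the difference. The call was lost when neg.si replicate 2 was left out (adjusted p = 0.129) or any RIPK4.si library (0.102 without replicate 1, 0.0738 without replicate 2 and 0.0758 without replicate 3), while the log2 fold change stayed between -1.47 and -1.29. An antisense gene overlaps part of an EGR3 exon.

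EGR1, with its paired CArG boxes shown above, is the founding member of the family. It was 60.2, 66.7 and 63.5 CPM in neg.si and 60.4, 69.0 and 61.6 CPM in RIPK4.si. The 6 values were nearly equal, with a log2 fold change of 0.00 ± 0.140 (SE). The ratio of EGR3 to EGR1 within a library, a pair chosen after the values were seen and not tested, was 0.977, 0.910 and 1.01 in neg.si and 0.356, 0.325 and 0.446 in RIPK4.si. EGR2 was at 9.30 ± 0.891 CPM (SD, n = 3) in neg.si against 7.78 ± 1.12 CPM in RIPK4.si, with overlapping groups. EGR4 was at 0.565 ± 0.271 and 0.609 ± 0.175 CPM, from 8 to 23 counts per library. Its log2 fold change of 0.11 had a standard error of 0.468, and the size of difference detectable at this depth was not tested.

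IER2 (chr19:13150411-13154911, plus strand), a nuclear protein of the immediate-early response whose promoter holds the pair of ETS cores shown above, was 46.1, 39.0 and 33.8 CPM in neg.si and 24.0, 27.9 and 21.8 CPM in RIPK4.si. All 3 RIPK4.si libraries were below all 3 neg.si libraries. The log2 fold change was -0.69 ± 0.177, with an adjusted p of 0.140 by edgeR and 0.0499 by DESeq2, just inside the threshold, and from 0.0438 (without neg.si replicate 3) to 0.642 by edgeR with 1 library left out, the other 5 such fits giving no call. Antisense genes overlap IER2, and strand was not counted. IER3, which encodes an inhibitor of cell death, was at 97.5 ± 35.9 CPM (SD, n = 3) in neg.si against 100.2 ± 11.9 CPM in RIPK4.si, and its groups overlapped.

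The NR4A genes encode orphan nuclear receptors. NR4A1 was 17.1, 15.2 and 12.8 CPM in neg.si and 9.78, 10.8 and 10.5 CPM in RIPK4.si. The groups did not overlap, and the log2 fold change was -0.54 ± 0.174 (SE), adjusted p = 0.251. NR4A2 was at 15.8 ± 4.17 CPM (SD, n = 3) in neg.si against 13.4 ± 4.04 CPM in RIPK4.si, and NR4A3 at 2.76 ± 0.499 and 2.51 ± 0.289 CPM, both with overlapping groups.

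The FOS and JUN families pair to form the AP-1 transcription factor. FOSB was 2.97, 3.36 and 1.86 CPM in neg.si and 3.92, 4.88 and 4.69 CPM in RIPK4.si. Every RIPK4.si library was above every neg.si library, from 59 to 146 counts per library, and the log2 fold change was 0.72 ± 0.259 (adjusted p = 0.326). FOS was at 4.60 ± 0.471 CPM (SD, n = 3) in neg.si against 5.58 ± 1.11 CPM in RIPK4.si. FOSL1, which encodes FRA-1, was at 92.8 ± 11.9 and 102.8 ± 11 CPM, and FOSL2 at 60.8 ± 5.55 and 57.3 ± 5.50 CPM. The groups overlapped for these 3.

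JUN was at 4.85 ± 2.01 CPM (SD, n = 3) in neg.si against 4.06 ± 0.451 CPM in RIPK4.si. JUNB was at 21.8 ± 12 and 17.7 ± 2.38 CPM, and JUND at 14.98 ± 2.88 and 15.7 ± 5.14 CPM. The groups overlapped for all 3, and the SD of JUN and JUNB in neg.si was larger than the difference between the means. MYC, a transcription factor of growth, was at 115.4 ± 14.0 CPM (SD, n = 3) in neg.si against 128.9 ± 10.1 CPM in RIPK4.si, again overlapping. The further output genes overlapped too: PHLDA1, a pleckstrin homology domain protein, was at 337.8 ± 145.9 and 278.2 ± 84.96 CPM, and UPP1, uridine phosphorylase, at 251.5 ± 55.5 and 279.4 ± 72.8 CPM.

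To compare genes with each other, counts were divided by exon length (RPKM, the CPM value per kilobase of merged exons). Levels ran from 0.238 RPKM (EGR4) to 103.7 RPKM (SPRY4) in neg.si, and both feedback inhibitors and immediate-early genes stood at either end of the order. In neg.si, SPRY4 was at 103.7 ± 9.84 RPKM (SD, n = 3), DUSP4 at 98.4 ± 2.80, DUSP6 at 81.8 ± 1.91, SPRY2 at 74.7 ± 3.81 and IER3 at 72.2 ± 26.6. SPRY4 and DUSP4 did not differ beyond their spread, nor did SPRY2 and IER3. Below them came ETV4 (62.8 ± 15.1), PHLDA1 (57.1 ± 24.7), UPP1 (54.9 ± 12.1), ETV5 (52.4 ± 2.36) and FOSL1 (49.2 ± 6.32), whose levels overlapped. In RIPK4.si the order at the top was different by mean, with SPRY2 first (94.9 ± 3.26 RPKM), then DUSP4 (80.5 ± 4.06) and SPRY4 (77.3 ± 8.65). The median member level in neg.si was 12.9 RPKM, 20.7 for feedback inhibitors, 8.47 for the cascade and 7.77 for immediate-early genes. Merged exons take in all annotated transcripts of a gene, 41150 bases for NF1 and 23433 for BRAF. RPKM is too low where the cells use a shorter transcript, so the order of genes and roles depends on the annotation. Which transcripts were used was not tested.

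Within the families the level per length varied widely. Of the EGR genes in neg.si, EGR1 was at 20.2 ± 1.04 RPKM (SD, n = 3), EGR3 at 12.2 ± 0.556, EGR2 at 2.51 ± 0.241 and EGR4 at 0.238 ± 0.114. In RIPK4.si EGR3 was at 4.73 ± 0.638 RPKM, still above EGR2 at 2.10 ± 0.302. Of the FOS genes, FOSL1 was far above FOS (1.44 ± 0.148) and FOSB (0.492 ± 0.141) in neg.si, and FOSL2 lay between at 8.49 ± 0.775. Of the cascade, NRAS was the highest by mean RPKM in neg.si (34.6 ± 13.3), overlapping MAP2K2 (18.6 ± 7.80), and KSR1 the lowest (0.668 ± 0.202 in neg.si and 1.24 ± 0.277 in RIPK4.si). The order of NRAS and MAP2K2 rests on their merged exon lengths, 4326 and 7767 bases. Their mean CPM in neg.si were close, 149.8 and 144.8.

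**Figure D3:**
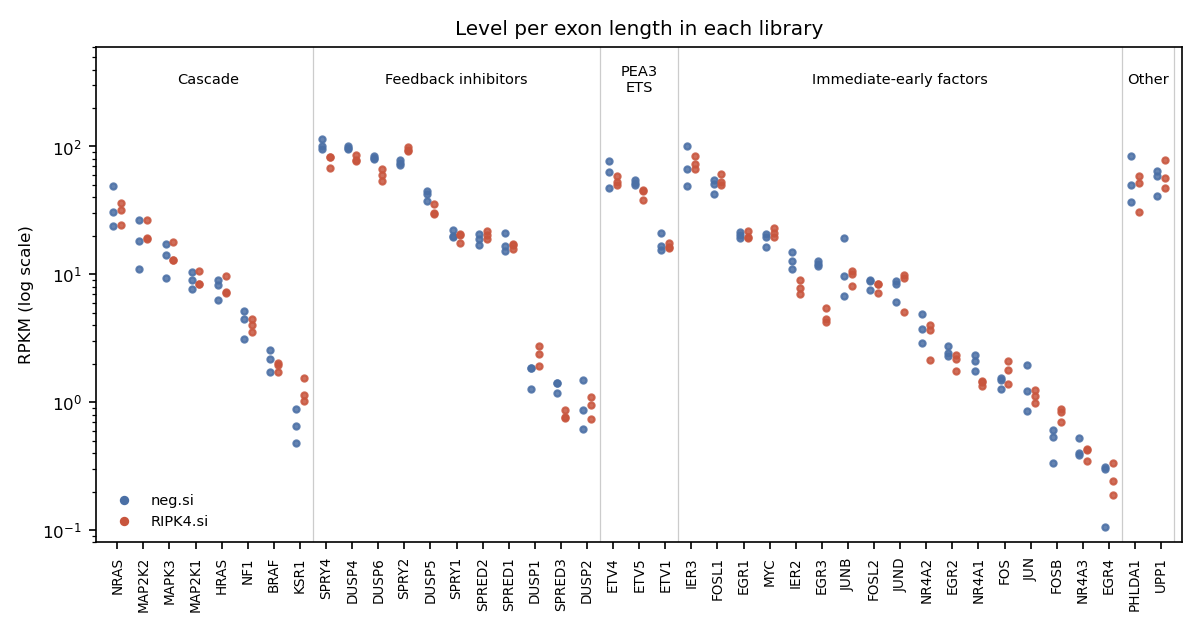
RPKM (y axis, log scale) of the 41 members in each of the 6 libraries, ordered within each role by mean level, blue for neg.si and red for RIPK4.si. SPRY4, DUSP4 and SPRY2 have the highest mean levels and EGR4 the lowest, and EGR3, IER2 and SPRED3 show 2 separate sets of points.

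The control libraries differed among themselves in a way that followed the GC content of the genes, and this touched many members. Library neg.si replicate 3 was the lowest of its group for 26 of the 41 members (63.4%, against 42.7% of all genes) and for 13 of the 17 immediate-early genes. The RIPK4.si libraries were uneven too. Replicate 1 was the lowest of that group for 20 members (48.8%, against 34.8% of all genes) and the highest for 4 (9.76%, against 35.1%). Replicate 2 was the highest for 22 (53.7%, against 40.2%). JUNB was 35.3, 17.7 and 12.3 CPM in neg.si replicates 1, 2 and 3, and PHLDA1 went the other way at 217.8, 295.5 and 500.2 CPM. The longest transcript has a GC content of 64.9% for JUNB and 43.0% for PHLDA1. Of the 19 members with a GC content of at least 55%, 18 were lower in neg.si replicate 3 than in replicate 1 (median log2 ratio -0.55), and of the 7 under 45%, 6 were higher (median 0.58). Across the 41 genes Spearman's rho of GC content with this ratio was -0.819, a description of 1 pair of libraries, since genes of a library share its preparation. Across all genes, the rank correlation of GC content with the level relative to the other libraries was 0.555, 0.0815 and -0.547 in the neg.si libraries, and -0.0525, 0.165 and -0.0788 in those of RIPK4.si.

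**Figure D4:**
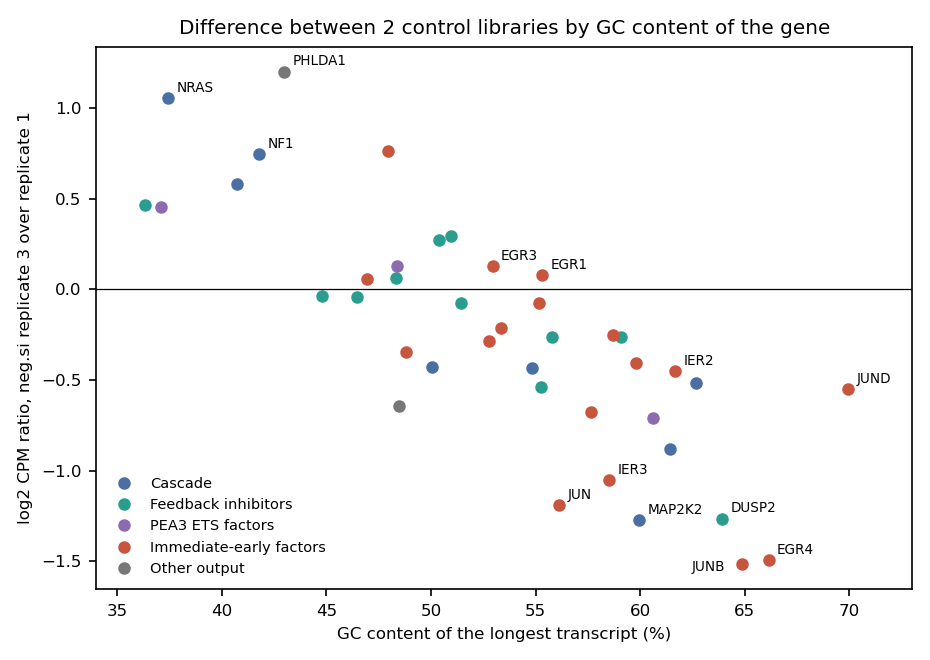
Log2 ratio of CPM in neg.si replicate 3 over neg.si replicate 1 (y axis) against the GC content in percent of the longest transcript (x axis), 1 point for each of the 41 members, colored by role. The ratio falls as GC content rises (Spearman's rho -0.819), from NRAS and PHLDA1 near 1 to JUNB and EGR4 near -1.5, and EGR1 and EGR3 lie near 0.

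With each library's trend on GC content removed, 4 members were called, all lower: EGR3 (adjusted p = 0.0039), IER2 (0.0209), SPRED3 (0.0408) and NR4A1 (0.0473). The background rose too, to 3.28% of 16239 genes, 1.58% higher and 1.70% lower. KSR1 had an adjusted p of 0.0642 in this fit. With the replicate block added to it, EGR3, IER2 and KSR1 (0.0205) were called and SPRED3 (0.0538) and NR4A1 (0.0752) were not. EGR3 and EGR1, with GC contents of 52.9% and 55.3%, had log2 ratios of neg.si replicate 3 over replicate 1 of 0.13 and 0.08, and their fold changes were nearly the same with the trend removed (-1.36 and -0.01).

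The wider pathway was described by 3 further lists: other cascade genes, other ERK output and further immediate-early genes. In that order edgeR called 1, 0 and 2 genes. Groups did not overlap for 4 higher and 3 lower cascade genes, 2 higher and 3 lower output genes, and 5 higher and 3 lower immediate-early genes. Over all genes the shares were 8.23% higher and 9.40% lower. Of 37 tested genes of the cascade outside the 41 members, such as SOS1, ARAF and the RSK kinases, 1 was called, higher, with 4 higher and 2 lower at an unadjusted p under 0.05 (median log2 fold change 0.04). Over all genes 0.767% were called and 10.8% had an unadjusted p under 0.05, 4.85% higher and 6.0% lower. RASGRP3, a guanine nucleotide exchange factor that activates RAS, was 2.62, 4.13 and 2.46 CPM in neg.si and 6.92, 9.73 and 10.4 CPM in RIPK4.si. It rose 2.94-fold (log2 fold change 1.56 ± 0.265, adjusted p = 0.0398 by edgeR, 1.98e-05 by DESeq2). Without neg.si replicate 1 or 2 or any RIPK4.si library, edgeR called 0 genes of this list (3 to 9 at an unadjusted p under 0.05). RPS6KA1, which encodes the ERK-activated kinase RSK1, was at 50.6 ± 9.30 CPM (SD, n = 3) in neg.si against 31.5 ± 3.91 CPM in RIPK4.si (adjusted p = 0.160). DUSP7, a cytoplasmic ERK phosphatase related to DUSP6, was at 23.6 ± 3.34 and 36.1 ± 5.07 CPM (adjusted p = 0.196). With the GC trend removed, edgeR called RASGRP3 (adjusted p = 0.0195), RPS6KA1 (0.0203) and DUSP7 (0.0412), against 3.28% of all genes.

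Of 26 tested genes of a second list of ERK output, 0 were called by edgeR, 4 had an unadjusted p under 0.05 (1 higher and 3 lower, against 10.8% of all genes), and DESeq2 called 1 (against 2.78%). GPR3, an orphan receptor coupled to Gs, was 2.81, 2.03 and 2.39 CPM in neg.si and 5.49, 5.68 and 4.89 CPM in RIPK4.si (log2 fold change 1.15 ± 0.214, adjusted p = 0.0508 by edgeR, 0.00131 by DESeq2). HMGA2, a chromatin architecture protein, was at 157.7 ± 48.2 CPM (SD, n = 3) in neg.si against 96.2 ± 10.5 CPM in RIPK4.si, and PLK3, a polo-like kinase, at 13.1 ± 2.35 and 8.87 ± 1.497 CPM, with adjusted p-values of 0.227 and 0.335. With the GC trend removed, edgeR called GPR3 (adjusted p = 0.0178) and HMGA2 (0.0353), against 3.28% of all genes.

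Of 23 further immediate-early genes, 2 were called, 1 in each direction, with 3 higher and 3 lower at an unadjusted p under 0.05, where the shares of all genes were 0.767% and 10.8%. CCN1, a secreted matrix protein, was 5.39, 5.96 and 5.79 CPM in neg.si and 13.5, 17.1 and 13.7 CPM in RIPK4.si. It rose 2.59-fold (log2 fold change 1.37 ± 0.180, adjusted p = 0.0196), with nearly equal neg.si libraries. MCL1, a survival protein of the BCL2 family, was 230.3, 279.1 and 367.8 CPM in neg.si and 135.2, 133.4 and 143.5 CPM in RIPK4.si. It fell to 0.470 of the neg.si level (log2 fold change -1.09 ± 0.187, adjusted p = 0.0398), and it was highest in neg.si replicate 3. Without neg.si replicate 2 or any RIPK4.si library, 0 genes of this list were called by edgeR (4 to 6 at an unadjusted p under 0.05). SGK1, a serum-induced kinase, was at 604.4 ± 27.7 CPM (SD, n = 3) in neg.si against 879.4 ± 111.0 CPM in RIPK4.si (adjusted p = 0.190). The medians of the 3 lists, 0.04, 0.00 and 0.01, lay near that of all genes, -0.02.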

How the data were processed

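The authors trimmed the reads (Cutadapt), mapped them to GRCh38.p13 (TopHat) and assigned read pairs to genes (HTSeq) without using strand. The deposited count values, whole read pairs per gene, were used. The table also holds signal values, the counts the authors divided by DESeq2 size factors, and the authors' own comparison of the groups (fold ratio, log2 fold change with its standard error, p-value and adjusted p-value, all deposited from DESeq2). None of these were used.

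The 41 members and the other gene lists were chosen with earlier results of these data known. Replicates are biological replicates per the study's methods. The main test was edgeR 4.0.16 in R 4.3.3 (TMM normalization, its filter on low counts, quasi-likelihood test, Benjamini-Hochberg adjustment over 16297 genes, called at an adjusted p under 0.05). CPM and RPKM used TMM library sizes, and exon lengths, gene overlaps and GC content came from GENCODE release 44, in which 24416 of 24526 gene identifiers were found. Alternatives were DESeq2 1.42.0, other normalizations (DESeq2's size factors, upper quartile), no filter or at least 10 counts in every library, a replicate block, removal of each library's GC trend by lowess (span 0.3) alone and with the block, and each library left out. The study describes independent experiments, and the labels do not say whether a number marks a shared one. Same-numbered libraries were not treated as pairs in the main test, their deviations correlating at -0.242, 0.251 and 0.347. Every member is named with its group levels. Values in every library are given for members called by edgeR or DESeq2, the 12 with the smallest unadjusted p, the 3 with the highest mean RPKM and the cascade, and, of each other list, for called genes, the 3 with the smallest unadjusted p being named. EGR1, ETV5, JUNB and PHLDA1 were given in every library after their values were seen, as were GPR3 and the within-library ratios. Some genes of the other lists are not reported here. Simulated counts were used to test the fits. Other calculations used Python 3.11.15, pandas 2.3.3, scipy 1.17.1 and matplotlib 3.10.9.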

Additional observations from a re-analysis of the deposited data

How the results depend on the processing

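Over all genes 125 were called, 430 with DESeq2, 532 with the GC trend removed, 442 with it removed together with the replicate block, and 0 to 295 with 1 library left out (0 without neg.si replicate 2, RIPK4.si replicate 1 or RIPK4.si replicate 3, where 1153, 1426 and 1086 had an unadjusted p under 0.05, 4 without RIPK4.si replicate 2, 70 when neg.si replicate 1 and 295 when neg.si replicate 3 was left out). Members called were 1, and 3, 4 and 3 under the first 3 of these (EGR3, IER2 and KSR1 with DESeq2 and with the block and GC removal together), and 0 to 2 with 1 library left out: 0 without neg.si replicate 2 or any RIPK4.si library, and 2, EGR3 and IER2, without neg.si replicate 3. Other cascade genes called were 1, 3 with the GC trend removed with or without the block, and 0 to 2 with 1 library left out (2 without neg.si replicate 3, otherwise 0). Other ERK output genes called were 0, 1 with DESeq2, 2 with the GC trend removed with or without the block, and 0 to 1 with 1 library left out (1 without neg.si replicate 3). Other immediate-early genes called were 2, and 0 to 2 with 1 library left out (0 without neg.si replicate 2 or any RIPK4.si library). Fits without a library hold fewer samples; other causes were not tested. The log2 fold change of RIPK4 stayed between -2.06 and -1.74 with 1 library left out, its call lost without neg.si replicate 2 or any RIPK4.si library (adjusted p 0.0622 to 0.106). The sign turned with the GC trend removed, and with the block added, for HRAS (-0.016 and -0.021), EGR1 (-0.012 and -0.0035) and JUND (-0.029 and -0.052), all near 0. With 1 library left out the sign turned at least once for 20 of the 41 members, 13 of them without neg.si replicate 3, and for none of the 10 with an unadjusted p under 0.05; the ranges were HRAS -0.12 to 0.15, NRAS -0.36 to 0.18, NF1 -0.25 to 0.090, MAP2K1 -0.096 to 0.15, MAP2K2 -0.056 to 0.57, MAPK3 -0.10 to 0.32, DUSP2 -0.34 to 0.34, SPRED1 -0.16 to 0.068, ETV1 -0.15 to 0.066, EGR1 -0.047 to 0.059, EGR4 -0.24 to 0.35, FOSL2 -0.16 to 0.00095, JUN -0.49 to 0.13, JUNB -0.58 to 0.25, JUND -0.086 to 0.33, IER3 -0.17 to 0.38, PHLDA1 -0.50 to 0.12, NR4A2 -0.40 to 0.0012, NR4A3 -0.20 to 0.041 and UPP1 -0.063 to 0.32. The replicate block alone gave 131 calls over all genes and 1 member; not every library correlated best with its own number, and the labels do not say whether the numbers mark shared experiments. EGR4 had under 10 counts in 1 library and gives no value under that filter. EGR4, at 8 to 23 counts per library, had the largest standard error of the members (0.468).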
